A study of Mus musculus with 24 samples.

Results

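The choroid plexus transport and secretion genes are 10 genes, Ttr, Kcne2, Slc4a5, Slc16a8, Tmem72, Kl, Folr1, Aqp1, Clic6 and Otx2, which were selected by symbol from the 47593 genes of the hippocampal count table. All 10 were found, each as a single row. The choice used the names of the genes and no measured value of theirs, although earlier results of these data were known when it was made. RNA was sequenced from the hippocampi of 24 male C57BL/6J mice aged 8 to 12 weeks, 3 in each of 8 groups. Mice were wild type (WT) or lacked the Tob gene in the whole body (Tob-KO). They were taken without training (naive) or 15 min, 1 h or 3 h after fear conditioning. In this training, tones that end together with inescapable foot shocks are given in a chamber. The groups share strain, sex and tissue, and the naive mice of both genotypes received no training with tone and shock. The comparison between genotypes asks how loss of Tob changes the transcriptional response of the hippocampus to this stress.

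The choroid plexus is a fringe of secretory epithelium that hangs into the brain ventricles, and its fringe in the lateral ventricle is attached along the border of the hippocampus. Its epithelial cells make cerebrospinal fluid by moving ions, bicarbonate and water across the cell layer, carry lactate, folate and hormones between blood and fluid, and secrete proteins into the fluid. These cells are not hippocampal neurons or glia. In a bulk sample, fewer cells of a type and less RNA of each cell cannot be told apart.

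Libraries held 28847989 to 41595972 counts (median 31169386), and levels are given as CPM, the counts scaled to a common library size with the trimmed mean of M-values (TMM). No pair of libraries within a group was a repeat of the same library, since counts in all 24 pairs differed by more than sampling noise (chi-square per degree of freedom 3.68 to 22.8). The targeted gene, Tob1, had 33.9 to 44.5 CPM over the WT libraries but 52.1 to 68.3 CPM over those labelled Tob-KO, so its level went against the label. Every direction below is therefore that of the libraries labelled Tob-KO. The labels do not say which mice shared a litter or a day, and p-values measure the spread between these samples. Counts of hippocampal neuron markers (Zbtb20, Wfs1 and 8 others) summed to 1088 to 1574 CPM over the 24 libraries, with none of these genes at 0 in any library.

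The members lie on 7 chromosomes of GRCm38. Slc4a5 (83219828 to 83304945, forward strand), Tmem72 (116679063 to 116716913, reverse strand) and Aqp1 (55336432 to 55348555, forward strand) are on chromosome 6. Kcne2 (92292389 to 92298129) and Clic6 (92485736 to 92541243) are neighbours on the forward strand of chromosome 16, 187.6 kb apart, with 8 annotated genes between them, 4 of which are protein-coding. Slc16a8 and Folr1 overlap a gene on the other strand (Gm49486 and Anapc15), Clic6 overlaps 2410124H12Rik on its own strand, and Otx2 overlaps Gm49154 on its own strand and Otx2os1 on the other. The strand setting of the counting is not given in the sources used here, so the counts of these 4 genes are uncertain to the extent that overlapping reads were assigned to the neighbour. The sequences shown are those in front of RefSeq start sites (GRCm38.p6) of Slc4a5, an ion transporter, and Kcne2, a channel subunit. The Otx2 sequence surrounds the motif found in front of that gene.

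The capitals mark the match to TAATCC, the core motif that the OTX homeodomain binds, here on the other strand as GGATTA. The Otx2 sequence is chr14:48665305-48665330 on the reverse strand, 26 bases around the match, which begins 211 bases before a RefSeq start site of the gene. The Slc4a5 sequence is chr6:83237125-83237374 and the Kcne2 sequence is chr16:92292139-92292388, both on the forward strand, the 250 bases before a start site. GENCODE places the Otx2 match and part of the Slc4a5 sequence inside exons of other transcripts of these genes.
Otx2: tgtgcccctcGGATTAtctcgttagt
Slc4a5: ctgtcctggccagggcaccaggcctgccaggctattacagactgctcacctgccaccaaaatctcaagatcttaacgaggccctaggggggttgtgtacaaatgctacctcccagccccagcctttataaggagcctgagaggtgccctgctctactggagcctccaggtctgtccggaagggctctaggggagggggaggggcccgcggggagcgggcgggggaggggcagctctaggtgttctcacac
Kcne2: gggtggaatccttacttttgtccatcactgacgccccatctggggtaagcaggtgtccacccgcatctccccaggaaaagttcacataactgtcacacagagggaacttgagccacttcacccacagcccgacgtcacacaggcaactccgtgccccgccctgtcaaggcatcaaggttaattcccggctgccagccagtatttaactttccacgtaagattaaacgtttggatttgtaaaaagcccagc

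RefSeq gave 11 promoters of 300 bases for 7 of the 10 members, which leaves Ttr, Folr1 and Clic6. The motif, read on both strands, was in 1 of these 11, a promoter of Otx2, and in 7.06% of all 32851 promoters of the table. The match is a description of these letters, and nothing about binding was measured.

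The levels of all 10 genes fell into the same 2 sets of libraries. The most abundant member was Ttr, which encodes transthyretin, the thyroid hormone and retinol carrier that the choroid plexus secretes. Among naive mice the level of Ttr was 2097, 579.9 and 16.9 CPM for WT, against 35.7, 4209.7 and 1966 CPM for the libraries labelled Tob-KO. At 15 min its level was 3.63, 13.6 and 16.6 CPM for WT, against 29.0, 2880.3 and 1107 CPM for Tob-KO. At these times a group could hold both very low and very high libraries, while WT at 15 min held only low ones. At 1 h Ttr read 2021, 23.4 and 838 CPM for WT, against 1872, 1936 and 2713 CPM for Tob-KO. At 3 h its level was 1851, 2440.0 and 17.2 CPM for WT, against 1778, 24.9 and 22.5 CPM for Tob-KO. No library lay between 35.7 and 580 CPM, and the span from lowest to highest was 1158-fold.

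**Figure D1:**
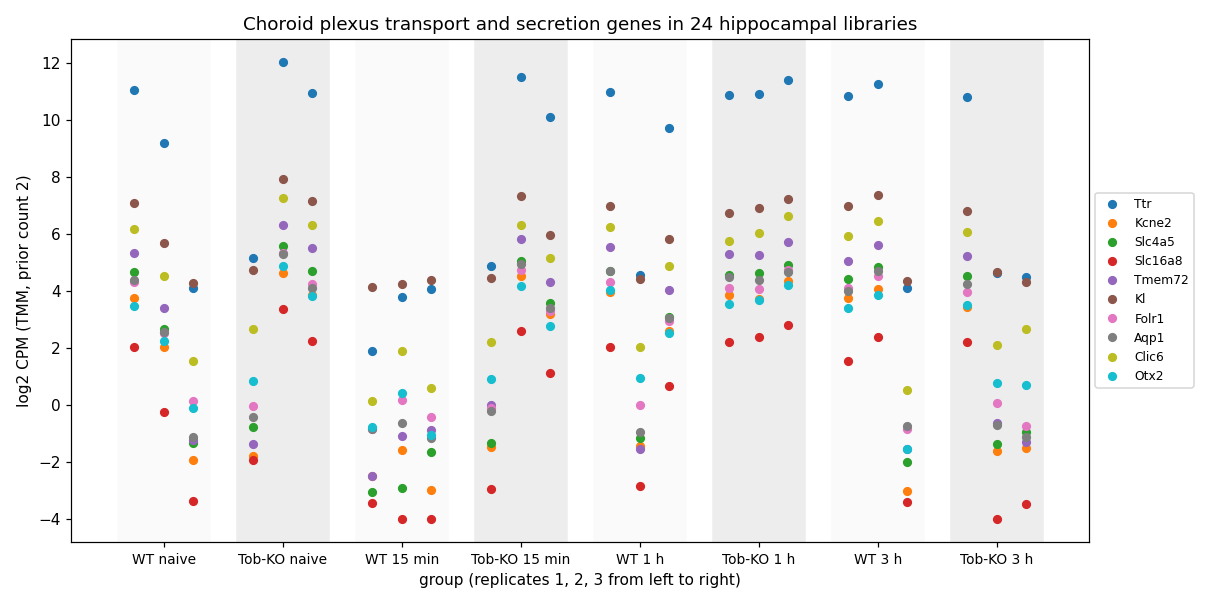
Level of each of the 10 genes (log2 CPM, prior count 2) in the 24 libraries, 1 point per gene and library, with the 3 replicates of each group side by side and darker bands for the libraries labelled Tob-KO. In 14 libraries all 10 genes are high, in 10 libraries all 10 are low, and the 3 WT libraries of 15 min are among the low ones.

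Divided at this widest gap of Ttr, 14 libraries were above and 10 below. The same division held for each of the other 9 members, none of which overlapped between the sets. Of all 19500 genes tested, 121 (0.621%), these 10 included, were higher in each of the 14 libraries than in each of the 10. As the division was read from the levels, it is a description of the libraries and defines no groups of the study. Above the gap were 2 of 3 naive WT libraries, 0 of 3 WT libraries at 15 min, 2 of 3 at 1 h and 2 of 3 at 3 h. Of the libraries labelled Tob-KO, 2 of 3 were above it in naive mice, 2 of 3 at 15 min, 3 of 3 at 1 h and 1 of 3 at 3 h. In all, 6 of 12 WT libraries and 8 of 12 libraries labelled Tob-KO were above the gap. Replicate 2 of naive Tob-KO mice was the highest library for 10 of 10 members by CPM, and the lowest of the 14 for Ttr was naive WT replicate 2.

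Ion transport was represented by Kcne2, the beta subunit of a potassium channel, Slc4a5, a sodium bicarbonate cotransporter (NBCe2), and Clic6, a member of the chloride intracellular channel family. Slc4a5 read 24.9, 6.28 and 0.332 CPM for naive WT libraries, against 0.524, 48.1 and 26.0 CPM for naive libraries labelled Tob-KO. At 1 h its level was 26.1, 0.379 and 8.33 CPM for WT, against 23.3, 24.8 and 30.2 CPM for Tob-KO. Its high and low libraries were those of Ttr. Kcne2 ran from 0.0623 to 24.6 CPM (median 7.46), and both genes were at 3 or fewer counts in 2 libraries, so no fold is given for their span. Clic6 ran from 1.05 to 152 CPM, a 145-fold span with a median of 32.4 CPM.

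Transport of water and small molecules was represented by Aqp1, the water channel of the epithelial surface that faces the fluid, Slc16a8, the lactate carrier MCT3, and Folr1, the folate receptor alpha. Aqp1 spanned 0.385 to 38.9 CPM (101-fold) and Folr1 spanned 0.494 to 40.4 CPM (81.8-fold). Slc16a8 was the scarcest member, with a highest level of 10.3 CPM. It was at 3 or fewer counts in 9 libraries and at 0 in 3 of them (WT replicates 2 and 3 at 15 min and Tob-KO replicate 2 at 3 h), where a count of 0 allows up to 0.0961 to 0.103 CPM. Intervals and limits of this kind cover counting error only.

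The remaining members are Kl, which encodes Klotho, a membrane protein that is shed into blood and cerebrospinal fluid, Tmem72, a transmembrane protein, and Otx2, the homeodomain transcription factor of this epithelium. Kl stood apart by its level below the gap. In naive mice its level was 134, 50.6 and 19.1 CPM for WT, against 26.4, 245 and 143 CPM for Tob-KO. At 15 min Kl read 17.6, 19.0 and 20.7 CPM for WT, against 22.0, 160.0 and 62.8 CPM for Tob-KO. Its 10 low libraries thus lay within 17.6 to 26.4 CPM, and its whole span was 14.0-fold. Tmem72 spanned 0.116 to 79.3 CPM (682-fold) and Otx2 spanned 0.281 to 29.0 CPM (103-fold).

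Per kilobase of exon, Ttr was far above the rest, with a median of 1645 CPM per kb over the 14 libraries above the gap. In the same libraries Clic6 followed at 17.6, Kl at 13.4, Aqp1 at 7.87, Kcne2 at 7.83 and Folr1 at 7.81 CPM per kb. The lowest medians on this scale were those of Slc4a5 (4.28), Otx2 (2.89), Tmem72 (2.31) and Slc16a8 (1.99 CPM per kb). Ttr made up 15.1 to 86.9% of the members' counts, and the 10 members together made up 0.00243 to 0.490% of a library.

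The spread between mice of the same group was among the widest in the table. The biological coefficient of variation (BCV), the fitted relative spread within groups over the 24 libraries, was 0.689 for Kl, 0.875 for Otx2, 0.998 for Clic6, 1.28 for Ttr and 1.37 for Slc16a8, against a median of 0.0956 over 19500 genes. The 10 members lay between the percentiles 99.1 and 99.97, and 182 genes had a BCV above that of Kl. Within groups, 9 of the 10 had their smallest SD in Tob-KO mice at 1 h, where Ttr had an SD of 0.30 on the log2 scale and all 3 libraries were above the gap. The exception was Kl, with its smallest SD (0.12) in WT mice at 15 min, where all 3 were below it. The largest SD of Ttr, 4.02, was that of WT mice at 3 h. Of the variation of the members' log2 levels, 57.9 to 65.8% lay within groups, near the median of 61.5% over all genes.

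**Figure D2:**
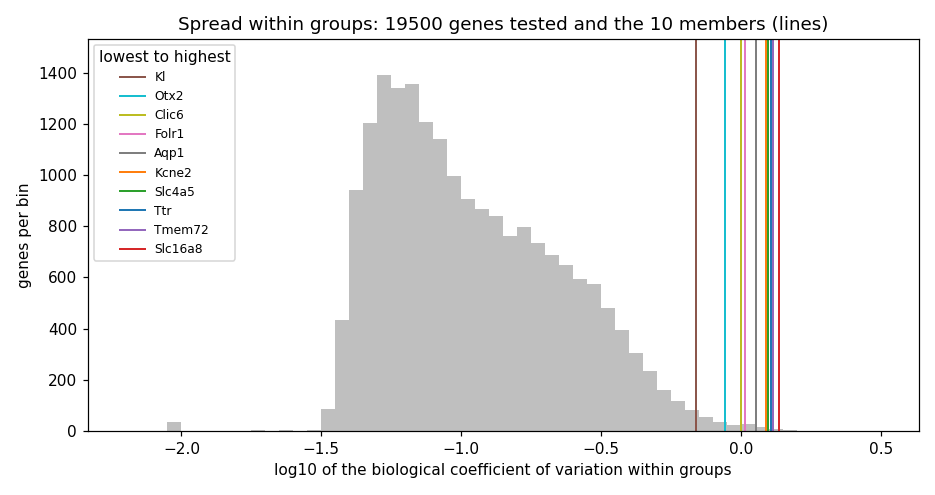
Histogram of the BCV within groups (log10) for all 19500 genes tested, with a vertical line for each of the 10 members. The members, from Kl at 0.689 to Slc16a8 at 1.37, lie in the upper tail, against a median of 0.0956 over all genes.

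Within the 14 libraries above the gap, the members kept nearly fixed ratios to each other. Folr1 had the steadiest ratio to Ttr, at 9.28 ± 0.403 counts per 1000 Ttr counts (SD, n = 14). The SD of the log2 ratio was 0.063, while counting error alone would give 0.067, and the log2 level of Folr1 had an SD of 0.74 in the same libraries. Tmem72 was at 19.8 ± 1.61, Slc4a5 at 11.8 ± 0.974 and Kcne2 at 7.11 ± 0.699 counts per 1000 Ttr counts. Clic6 was at 34.7 ± 3.60, Aqp1 at 10.1 ± 1.19 and Otx2 at 6.58 ± 0.804 on this scale. These ratios varied by 8.10 to 12.2% (coefficient of variation). The ratio was more variable for Kl, 63.9 ± 8.56, and for the scarce Slc16a8, 2.12 ± 0.400 counts per 1000 Ttr counts.

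Over the 45 pairs of members, the SD of the log2 ratio in these 14 libraries was 0.063 to 0.43 (median 0.18), with Ttr and Folr1 the steadiest pair and Slc16a8 and Kl the least steady. The SD of the members' own log2 levels was 0.64 to 0.95 (median 0.74). The ratios of the 14 libraries share Ttr as the denominator and are given without a test.

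Below the gap 6 of the other 9 members were higher relative to Ttr than above it, beyond counting error. With counts summed over the 10 low libraries, which held 6549 counts of Ttr, Tmem72 was at 19.9 counts per 1000 Ttr counts (95% exact binomial interval 16.6 to 23.6), the same as its 19.9 over the 14 high libraries. Slc16a8 was at 2.29 (1.28 to 3.78, from 15 counts) against 2.20. Slc4a5 was at 14.5 (11.7 to 17.8) against 11.9. For these 3 genes the value of the high libraries was inside the interval, although the interval holds counting error alone and single low libraries with at least 10 counts of Tmem72 ran from 9.16 to 32.0. Kcne2 was at 10.4 (8.05 to 13.2, from 68 counts) against 7.05 counts per 1000 Ttr counts. It had at least 10 counts in only 2 low libraries. Single low libraries ran from 3.63 to 32.0, on both sides of 7.05, so its shift was not seen library by library. Aqp1 was at 25.8 (22.0 to 30.1) against 10.1, a ratio 2.55-fold higher below the gap. The ratio of Folr1 was 4.20-fold higher, at 39.1 (34.4 to 44.3) against 9.31, and that of Clic6 was 5.12-fold higher, at 176 (166 to 188) against 34.4. For these genes a larger part of the level remained where Ttr was low. The widest changes were in Otx2, 9.11-fold higher at 59.4 (53.5 to 65.8) against 6.52, and in Kl, 16.8-fold higher at 1040.0 (1005 to 1076) against 61.9 counts per 1000 Ttr counts. Kl thus had more counts than Ttr, 6811 against 6549, in the low libraries as a whole.

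**Figure D3:**
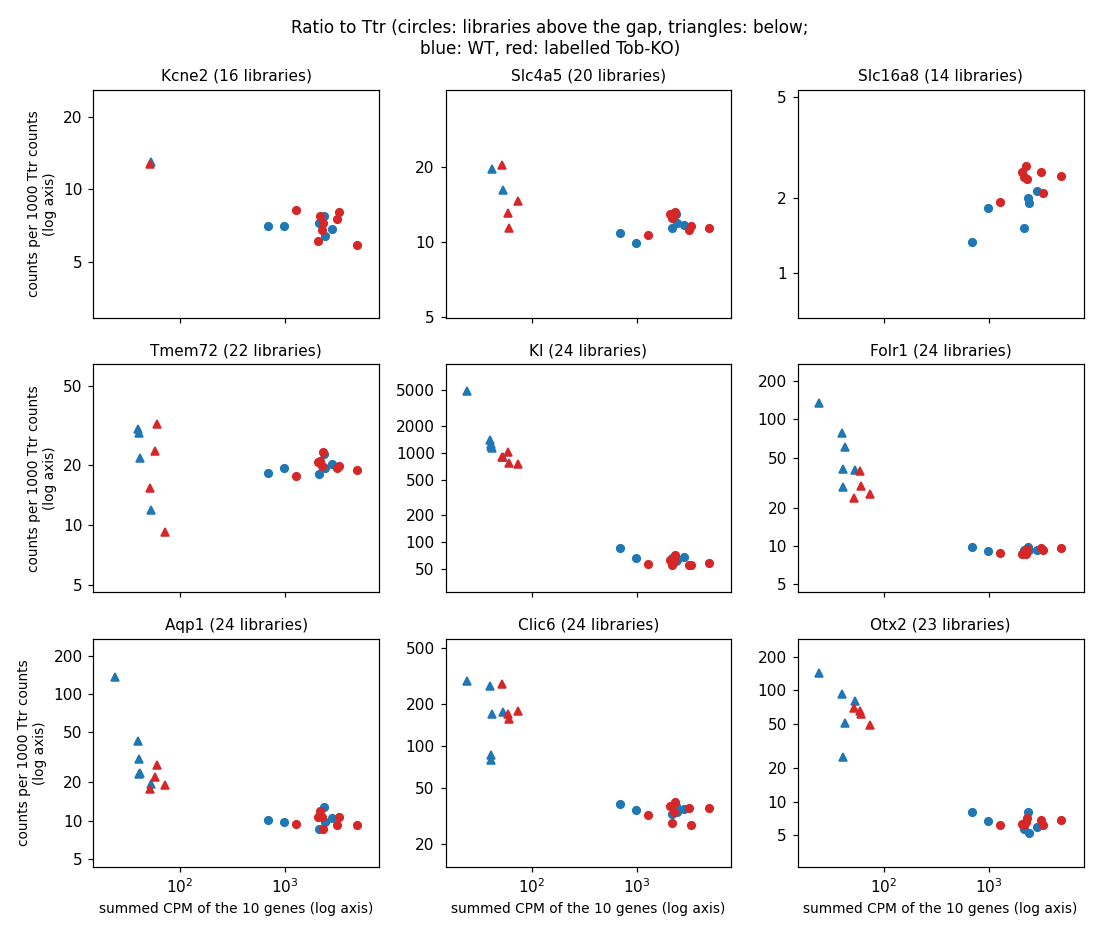
Counts of each of 9 members per 1000 Ttr counts (log axis) against the summed CPM of the 10 genes (log axis), for libraries with at least 10 counts of the member, with circles above and triangles below the gap, blue for WT and red for the libraries labelled Tob-KO. Above the gap the ratios are level, and below it they scatter around that value for Tmem72 and are higher for Kl, Otx2, Clic6, Folr1 and Aqp1.

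At 15 min after conditioning all 10 members were called higher in the libraries labelled Tob-KO than in WT, by the exact test of edgeR at a Benjamini-Hochberg adjusted p of 0.05 and a fold of 2. Over all 18364 genes tested, 102 (0.555%) were called at this time and 84 (0.457%) were called higher in Tob-KO. The median log2 fold change of the members was 5.48, against -0.01 over all genes. With Slc16a8 set at the lower bound of its interval the median was 5.21. In 9 of the 10 genes each Tob-KO library was above each WT library, as in 7.13% of all genes, and the exception was Folr1. Yet the lowest of the 3 Tob-KO libraries, replicate 1, was itself below the gap for every member.

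Slc4a5 read 0.0581, 0.0686 and 0.256 CPM for WT, against 0.331, 33.4 and 11.9 CPM for Tob-KO at 15 min. The fitted difference on the log2 scale was 6.86 (standard error 1.49, adjusted p = 0.000518, edgeR's exact test, with the standard error from the quasi-likelihood fit here and below). Ttr, with the values given above, differed by 6.89 (1.37, adjusted p = 0.000422, edgeR). The lowest Tob-KO library of either gene stood closer to the WT libraries than to the other two Tob-KO libraries. Kcne2 read 0.116, 0.274 and 0.0641 CPM for WT, against 0.298, 23.1 and 9.03 CPM for Tob-KO, a log2 fold change of 6.13 (1.35, adjusted p = 0.000715, edgeR). Clic6, with 1.05, 3.64 and 1.44 CPM for WT against 4.54, 79.6 and 35.5 CPM for Tob-KO, differed by 4.29 (0.91, adjusted p = 0.000982, edgeR).

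Aqp1 read 0.494, 0.583 and 0.385 CPM for WT, against 0.795, 30.7 and 10.4 CPM for Tob-KO, a log2 fold change of 4.83 (1.08, adjusted p = 0.000982, edgeR's exact test). Folr1 read 0.494, 1.06 and 0.673 CPM for WT, against 0.862, 26.7 and 9.78 CPM for Tob-KO, with 4.06 (0.98, adjusted p = 0.00533, edgeR). Its Tob-KO replicate 1 was below WT replicate 2, so these groups overlapped. Slc16a8 had 1 count in the 3 WT libraries together and 305 in the 3 Tob-KO libraries, a ratio of 269 after scaling with a 95% counting interval of 48.0 to 10676. Tmem72 differed by 6.25 (1.33, adjusted p = 0.000422, edgeR). Otx2, with 0.523, 1.27 and 0.417 CPM for WT against 1.79, 17.9 and 6.81 CPM for Tob-KO, differed by 3.58 (0.77, adjusted p = 0.00161, edgeR). The smallest difference was that of Kl, 2.09 (0.55, adjusted p = 0.0230, edgeR).

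The call depended on how the spread was modelled. With edgeR's quasi-likelihood test 0 members and 0 genes in all (0%) were called at 15 min. Each member had an adjusted p of 0.448 in this test, and unadjusted p was under 0.05 for 1577 genes. The exact test called 10 members and 102 genes in all, and DESeq2 called 6 members and 35 genes, of 18364 tested. With the dispersion taken from all 24 libraries 0 members and 16 of 18364 genes were called. Without WT replicate 3 the exact test called 4 members and 30 of 18202 genes.

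At the other times 0 members were called between genotypes by edgeR's exact test. In naive mice the members' log2 fold changes were 1.03 to 1.66 (median 1.23), with 4 genes (0.0218%) called in all and 742 at an unadjusted p under 0.05. At 1 h the median was 1.07, with 6 genes (0.033%) called and 970 under 0.05. Only Slc16a8, with 4.04, 0.0757 and 1.52 CPM for WT against 4.54, 5.18 and 6.85 CPM for Tob-KO, did not overlap between the groups at 1 h, as in 5.47% of all genes in this direction. Without WT replicate 1, 5 members were called at 1 h, and 155 of 17968 genes in all. At 3 h all 10 fitted values were negative, with a median of -1.08, and 5 genes (0.0274%) were called and 725 were under 0.05. DESeq2 also called 0 members at these 3 times (5, 4 and 4 genes in all), as did the quasi-likelihood test (1, 0 and 1 genes).

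Over the 24 libraries, with time as a factor, edgeR's quasi-likelihood test called 0 members (5 genes, 0.0256%, in all, and 2595 at an unadjusted p under 0.05). The fitted log2 differences, Tob-KO minus WT, ran from 0.76 for Kl to 1.48 for Ttr, with adjusted p from 0.428 to 0.610 (edgeR). Left without the 15 min libraries, the same test called 0 members and 3 of 19221 genes. The difference between genotypes at 15 min was not shown to differ from that in naive mice. Interaction terms against naive had medians of 4.40 at 15 min, -0.07 at 1 h and -2.37 at 3 h on the log2 scale. None of the members passed the quasi-likelihood test of these terms, where 1 gene (0.00526%), 0 genes (0%) and 0 genes (0%) did in all, and 641, 694 and 882 genes had an unadjusted p under 0.05.

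**Figure D4:**
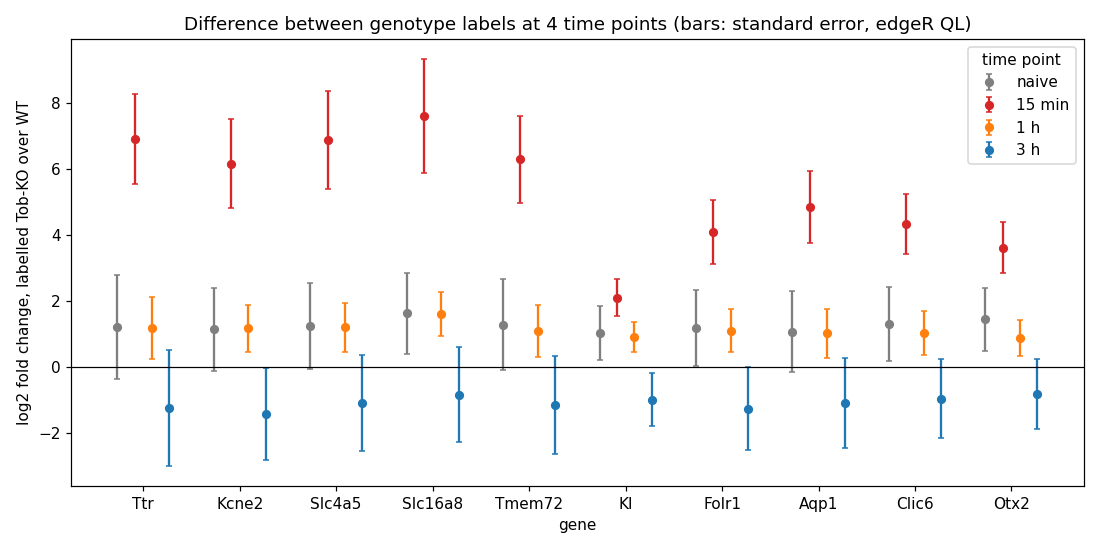
Log2 fold change of each member between the libraries labelled Tob-KO and WT at the 4 time points, with bars for the standard error of the quasi-likelihood fit. At 15 min the values lie between 2.10 for Kl and 7.60 for Slc16a8, whose WT libraries held 1 count so that its fitted value is no bound, and at the other times they lie between -1.43 and 1.63.

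Time was compared with naive mice of the same genotype, and the 3 comparisons of a genotype share its naive libraries. In WT mice all 10 members were lower at 15 min than in naive mice in the fit, with log2 differences of -6.82 to -1.83 (median -4.74). Unadjusted p was under 0.05 for 10 of 10 members and for 1119 genes in all, but 0 genes (0%) were called by edgeR's quasi-likelihood test, and the members' adjusted p was 0.730 to 0.788. Ttr, Slc4a5 and Slc16a8 did not overlap, as in 4.94% of all genes in this direction, while the other 7 did. For these 3 genes too, naive WT replicate 3 was about as low as the libraries of 15 min. It had 16.9 CPM of Ttr against at most 16.6, and 10 counts of Slc4a5 against at most 8. Of Slc16a8 it had 1 count, as did WT replicate 1 at 15 min (0.0332 against 0.0291 CPM). Without naive WT replicate 3, 7 members and 13 of 18186 genes were called. The exact test, run as an alternative, called 8 members and 26 genes (0.142%).

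In WT mice the median log2 difference from naive was 0.16 at 1 h and 0.64 at 3 h, and 0 members were called, with 2 genes (0.011%) and 0 genes (0%) called in all and 1802 and 639 at an unadjusted p under 0.05 (edgeR's quasi-likelihood test). In the libraries labelled Tob-KO the median was -0.70 at 15 min, 0.06 at 1 h and -1.72 at 3 h. Here too 0 members were called, and in all 4 genes (0.0218%), 9 genes (0.0491%) and 0 genes (0%) were, with 2416, 2637 and 1577 at an unadjusted p under 0.05. DESeq2 and the exact test also called 0 members in these 5 comparisons. Over all genes, in the same order, DESeq2 called 6, 2, 21, 14 and 2, and the exact test 25, 1, 46, 39 and 2.

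The ratio of each member to the mean of the other 9 was compared between genotypes over the 24 libraries by a two-sided exact permutation test within time points (160000 arrangements). Folr1 was lower against the others in the libraries labelled Tob-KO, at -1.02 ± 0.25 against -0.61 ± 0.51 in WT (log2 ratio, SD, n = 12 each, exact p = 0.0127, unadjusted for 10 such tests). The other 9 had an unadjusted permutation p of 0.144 to 0.843. The ratio of Folr1 was higher below the gap, where 6 WT and 4 Tob-KO libraries lay, and the part of that division in the result was not tested. The ratio of Slc16a8 differed by 0.20 (exact p = 0.336) over 24 libraries. Over the 14 with at least 10 counts of it the difference was 0.49 (exact p = 0.00556, unadjusted, the smallest that 180 arrangements allow). These 14 are the libraries above the gap, so they were picked by the level of Slc16a8 itself. With 0 WT libraries among them at 15 min, the 2 Tob-KO libraries of that time did not enter the test. No difference between genotypes is concluded from it.

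Of 20 other genes of the choroid plexus epithelium, 12 were called higher at 15 min in Tob-KO-labelled libraries by the exact test and 0 were called lower, and the quasi-likelihood test called 0. The 12 were Kcnj13 and Calml4, the hormone receptor gene Prlr, the secreted inhibitor gene Sostdc1, Enpp2, which encodes autotaxin, the tight junction gene Cldn2, Lbp, Steap1, F5, which encodes coagulation factor V, the transcription factor gene Lmx1a, Ace and 1500015O10Rik. On the log2 scale F5 differed by 4.51 (standard error 1.04) and Kcnj13, a potassium channel gene, by 3.44 (0.81). Enpp2 read 166, 171 and 186 CPM for WT, against 213, 1868 and 864 CPM for Tob-KO, a log2 fold change of 2.49 (0.59). As for the members, Tob-KO replicate 1 was close to the WT libraries. The 8 that were not called were Igf2, Igfbp2, Slc13a4, Trpv4, Rdh5, Msx1, Kcnq1 and Slc22a8. Among them Kcnq1, a potassium channel gene, had a log2 fold change of -0.32 (0.52) and the organic anion transporter gene Slc22a8 one of -0.04 (0.12). Across the gap 16 of the 20 were higher above it without overlap, against 0.621% of all genes, and Igf2, Slc13a4, Kcnq1 and Slc22a8 overlapped. Slc22a8 was at 8.20 to 17.2 CPM below the gap and at 8.18 to 16.2 CPM above it, and Kcnq1 was at 0.1997 to 0.857 and 0.147 to 0.748 CPM. The summed level of all 20 was 296 to 407 CPM below the gap and 742 to 3327 CPM above it. This list was chosen with results of these data known, so its direction is no independent evidence.

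The general ion transport genes of fluid secretion, which many brain cells also express, moved less. Of 12 genes, 0 were called at 15 min. The most abundant was Atp1b1, which encodes a beta subunit of the sodium pump, at 1658 to 1875 CPM below the gap and 1656 to 1919 CPM above it. Slc12a2, the sodium potassium chloride cotransporter NKCC1, was at 99.7 to 120.0 CPM below the gap and at 122 to 201 CPM above it. Slc4a2, an anion exchanger, was at 31.4 to 36.4 CPM below and 49.3 to 127 CPM above. With the carbonic anhydrase genes Car12 and Car14, these were the 4 of the 12 that were higher above the gap without overlap, against the same 0.621% of all genes. The summed level of the list was 3392 to 3778 CPM below the gap and 3666 to 3999 CPM above it.

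Marker lists of other cell types were read in the same libraries, and their part in the results was not tested. The 10 ependymal markers summed to 23.9 to 61.6 CPM below the gap and 45.9 to 90.5 CPM above it, with none of the 9 tested called at 15 min. All 9 fitted log2 differences, Tob-KO minus WT, were positive at 15 min, but below the 2-fold limit of a call. They ran from 0.43 for Rarres2 to 0.78 for Dynlrb2 (median 0.71). The cilia regulator Foxj1 was at 7.95 to 16.2 CPM below and 14.8 to 29.9 CPM above, Rarres2 was at 4.05 to 10.3 and 5.59 to 11.3 CPM, and Mia was at 0 in some libraries. Meningeal and fibroblast markers summed to 133 to 221 CPM below and 133 to 232 CPM above, and endothelial markers to 198 to 365 and 201 to 299 CPM, with 0 of 10 and 0 of 8 called. For both lists the ranges overlapped and no gene separated the sets. The most abundant genes of these lists were Pdgfra, at 55.02 to 69.0 CPM below the gap and 58.2 to 70.1 CPM above it, Dcn (25.03 to 53.1 and 17.6 to 60.8 CPM), Flt1 (49.98 to 105 and 47.9 to 74.1 CPM) and Slco1c1 (35.3 to 54.7 and 44.1 to 86.7 CPM). With a mean of 63.3 CPM, Pdgfra weighed most in the sum of its list. Whether Pdgfra and Slco1c1 mark the cell type of their list alone in the hippocampus was not tested. Red cell markers summed to 261 to 348 CPM below and 251 to 315 CPM above, and Alas2, the heme synthesis gene of red cell precursors, was called lower at 15 min in Tob-KO (log2 fold change -1.39, standard error 0.28). Thalamic and habenular markers summed to 79.8 to 114 and 84.1 to 128 CPM, and of 8 genes Prkcd was called higher at 15 min (1.08, standard error 0.27). The 10 hippocampal neuron markers summed to 1148 to 1474 CPM below and 1088 to 1574 CPM above, and 0 were called. Zbtb20 was at 378 to 539 CPM below and 355 to 619 CPM above, and Wfs1 at 134 to 188 and 131 to 194 CPM.

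**Figure D5:**
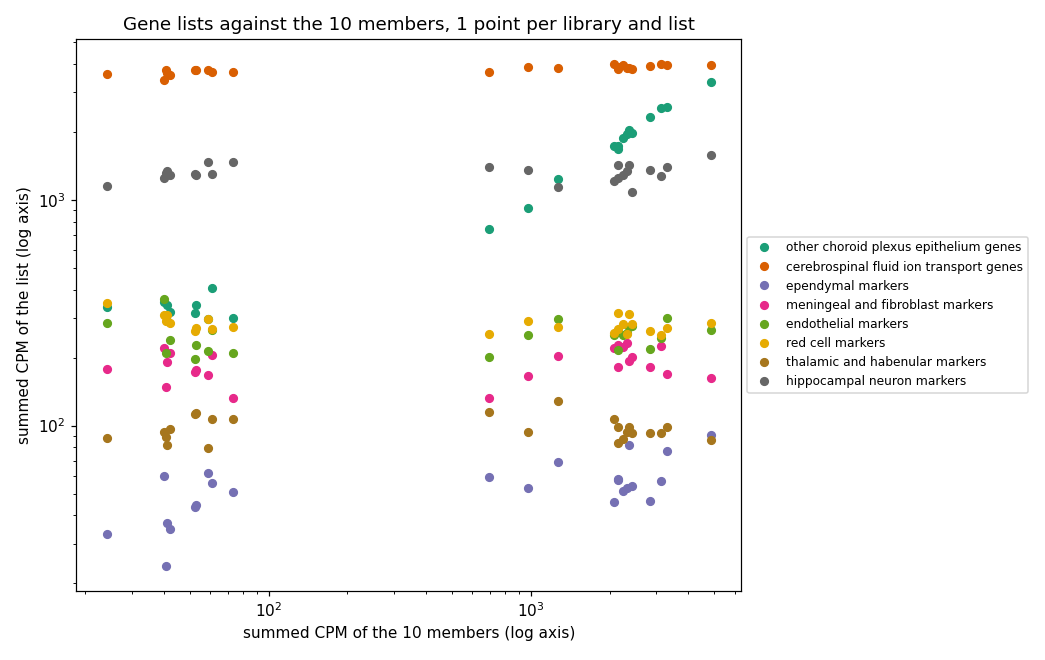
Summed CPM of 8 gene lists (log axis) against the summed CPM of the 10 members (log axis), 1 point per library and list. The other choroid plexus genes climb from 296 to 407 CPM on the left to 3327 CPM on the right, while hippocampal neuron, endothelial and red cell markers stay within the same range on both sides.

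Among 14439 genes with a mean of at least 1 CPM, the likeness to the members was measured as the SD over the 24 libraries of the log2 ratio to the members' mean, which was 2.59 for the median gene. The gene most like them was F5, with an SD of 0.24, from 1.03 to 80.2 CPM. Cldn2 followed with 0.39, then Prr32 (0.43), Steap1 (0.55) and Kcnj13 (0.60). Sult1c2 (0.65), Wdr72 (0.71), Wdr86 (0.76), Wfdc2 (0.78) and Mfrp (0.81) completed the 10 nearest. All 10 were highest in naive Tob-KO replicate 2, the highest library of the members. For comparison, the ratio of a member to the other 9 had an SD of 0.33 for Aqp1 to 1.44 for Kl, so several of these genes followed the members' mean more closely than some members did.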

How the data were processed

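Poly(A) RNA of 24 mouse hippocampi was sequenced. Per the labels and the study's methods, the authors aligned reads with STAR 2.6.1d to GRCm38 and deposited raw HTSeq 0.9.0 counts per gene; the annotation release, strand setting and treatment of multimapping reads are not given in the sources used here. The members and gene lists were chosen with earlier results of these data known. Counts were scaled by TMM in edgeR 4.0.16 (R 4.3.3), with genes kept at 0.2 CPM in 2 libraries. Genotypes were compared per time point with edgeR's exact test, as in the study, and time points, interactions and the 24-library genotype term with its quasi-likelihood test. At 15 min the study reported fewer genes between genotypes than the 102 called here, and the reason was not tested. Calls needed an adjusted p of at most 0.05, an unadjusted p of at most 0.05 and a fold of 2, except interactions, which had no fold limit. DESeq2 1.42.0 was an alternative. Values of log2 CPM used a prior count of 2. Named genes were the 10 members, Tob1, the called genes of each list or otherwise its 2 most abundant, and the 10 genes nearest to the members; Slc12a2, Slc4a2, Car12, Car14, Mia and the uncalled genes of the choroid plexus list were chosen after their values were seen. A gene that this rule names is not reported here. Coordinates are those of GENCODE M21. Scripts were tested on simulated data. Totals of 28847989 to 41595972 counts set the precision of low genes.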

Additional observations from a re-analysis of the deposited data

How the results depend on the processing

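At 15 min, 10 members were called between genotypes by the exact test, 0 by the quasi-likelihood test and 6 by DESeq2. With the dispersion of 24 libraries 0 were called, and with 1 library left out 4 to 10 were. Over all genes these settings called 102, 0, 35, 16 and 30 to 252, in this order (18117 to 18364 tested). In WT mice, 15 min against naive gave 0 member calls by the quasi-likelihood test, 8 by the exact test and 2 by DESeq2. With all genes that had a count it gave 10, and with 1 library left out 0 to 7. Over all genes these settings called 0, 26, 13, 48 (of 27749) and 0 to 13, in this order. At 1 h the genotype comparison with 1 library left out called 0 to 5 members and 4 to 155 genes in all. With the replicate number as a block, the quasi-likelihood test called 4 members and 6 genes at 15 min between genotypes. In WT mice at 15 min it called 2 members and 16 genes. Same-numbered samples did not deviate together in any of 10 comparisons (mean correlation -0.202 to 0.245), so the numbers do not pair the mice. The members' log2 fold changes at 15 min kept their sign in all 138 values under the alternatives, and 42 of these were no longer called. Of the ratios to the other members, 2 changed sign over libraries with at least 10 counts (Kcne2 -0.0759, exact p = 0.569, and Slc4a5 -0.0135, exact p = 0.961). That of Slc16a8 rose to 0.489 (exact p = 0.00556, the smallest its 180 arrangements allow), in libraries picked by its own level. Leaving out the 15 min libraries was chosen after seeing the data. The exact test and the quasi-likelihood test differ in how they treat the uncertainty of each gene's spread; beyond that the cause was not tested. Counts of 0 to 3 limit Slc16a8, Kcne2 and Slc4a5 below the gap.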
